A study of Mus musculus with 24 samples.

Results

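The genes described here code for the machinery that stores, docks and fuses synaptic vesicles: 40 genes were listed by symbol, from the synapsins and synaptophysins on the vesicle to the SNARE proteins, the active zone scaffolds and the proteins that take vesicle membrane back. A gene was measured where a row of the expression table was annotated with its symbol and no other. Of the 40, 36 had such a row, each with 1 row only, among 14807 genes that had one. Sv2c, Syt11, Vamp1 and Stxbp5 had none and are not described. The 36 were listed by name, without a filter on their levels, but with earlier results of these data known.

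RNA of the right hippocampus was hybridised to Affymetrix mouse exon arrays from 24 BALB-c mice aged 10 days. The right side is that on which the injury ligates the carotid artery. There were 6 mice in each of 4 groups that combine injury status with erythropoietin (EPO), the hormone of red cell production. The groups are called here by the start of their sample titles. Epo_Y mice were labelled brain-injured and treated with high-dose recombinant erythropoietin. Sham_Y mice were labelled sham-injured and received the same erythropoietin. Epo_N mice were labelled brain-injured with no treatment, and Sham_N mice sham-injured with no treatment. The titles can also be read with the first word as the treatment and the letter as the injury, which exchanges Sham_Y and Epo_N and leaves Epo_Y and Sham_N as they are. Which reading holds was not settled from the labels, so no difference that involves Sham_Y or Epo_N is put down to injury or to erythropoietin below. Each title also holds a code of a number and a letter, such as 3D, whose meaning is not given and which is called the title code here. The time between injury and collection is not given in the sources used here. Each array holds 1 mouse, and every value is a level on the log2 scale of 1 array, on which a difference of 1 is a doubling.

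A synaptic vesicle is filled with transmitter, held near the active zone, docked and primed, and fuses with the plasma membrane when calcium enters the terminal. Fusion is driven by SNARE proteins of vesicle and target membrane that zip together, with synaptotagmin as the calcium sensor, complexin as a clamp and co-activator, and the ATPase NSF taking the spent complex apart. In the hippocampus these proteins are made by neurons and accumulate over the early postnatal weeks, while the terminals of its pyramidal and granule cells form.

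Array medians ran from 5.05 to 5.43, and correlations between arrays over all 23238 rows from 0.952 to 0.993. By group, the medians were 5.30 to 5.43 in Sham_Y and 5.12 to 5.25 in Sham_N. Centring each array on its median therefore lowers every Sham_Y minus Sham_N difference by the same amount. Epo_Y arrays 3 and 4 were the least like their own group, with correlations of 0.980 and 0.985 to the mean of its other arrays, and Epo_Y array 3 had the lowest level of its group for 23 of the 36 genes. Sham_Y array 3 had the lowest level of its group for 25 of the 36. For some of the results that rest on these 3 arrays, values without them are also given below. Markers of hippocampal neurons averaged 8.22 to 8.97 in Epo_Y, 7.31 to 8.14 in Sham_Y, 8.84 to 9.14 in Epo_N and 8.71 to 9.06 in Sham_N, so that every Sham_Y array was below every array of the other groups.

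Most release genes were lower in Sham_Y than in Sham_N hippocampi. Of the 36 genes, 24 fell and 1 rose at an adjusted p under 0.05 (limma over all rows), where 7.6% of all rows were called lower and 11.5% higher. The median difference over the 36 genes was -0.53, against 0.03 over all rows. For 17 of the 36, every Sham_Y array lay below every Sham_N array, as it did for 3.88% of all rows. The largest falls were those of Sv2b, Synpr, Unc13a, Cplx2 and Cplx1, and the 1 gene that rose was Vamp3. In bulk tissue, fewer cells of a type and less RNA per cell cannot be told apart. When each array was centred on its own median, which moved the median of all rows to -0.15, the 36 genes gave 28 falls, no rise and a median of -0.70, where 18.4% of all rows were called lower and 7.7% higher. After quantile normalization 25 fell, where 11.6% of rows were called lower and 11.2% higher.

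**Figure D1:**
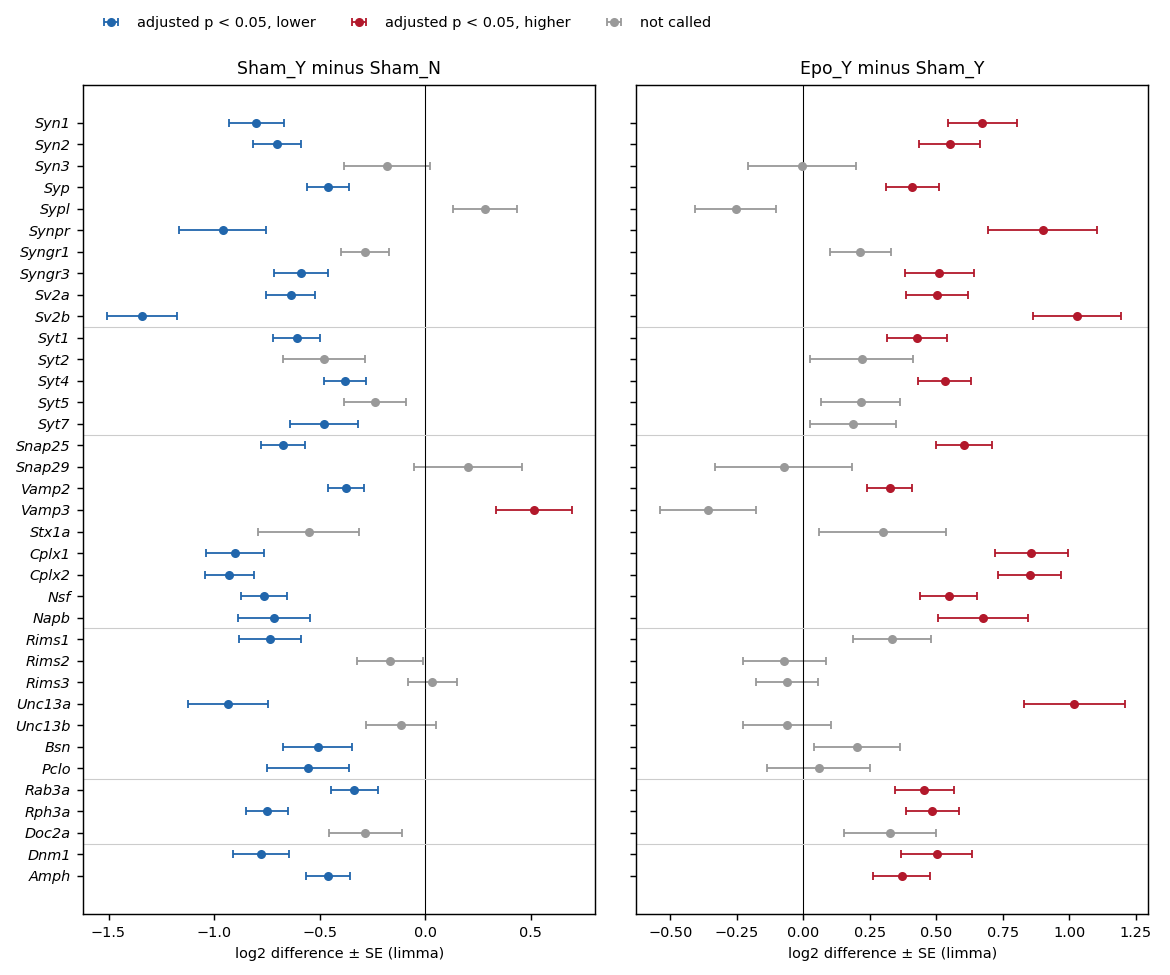
Log2 difference ± SE of each of the 36 release genes between Sham_Y and Sham_N (left) and between Epo_Y and Sham_Y (right), with grey lines between gene roles. Blue points are the 24 genes called lower, red points the genes called higher (1 on the left, 20 on the right) and grey points genes not called. The Sham_Y arrays enter both panels.

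**Figure D2:**
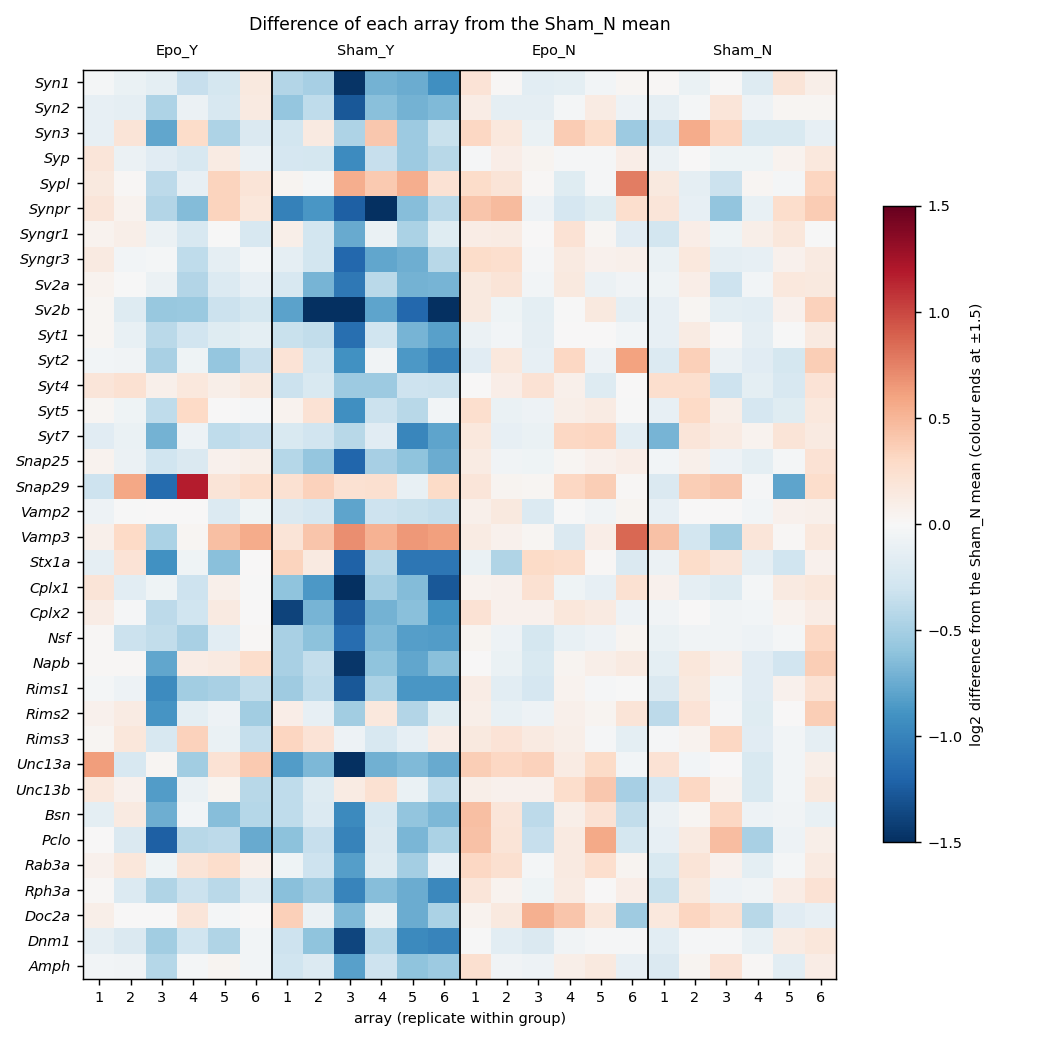
Level of each of the 36 genes (rows) on each of the 24 arrays (columns, by group and replicate) as a log2 difference from the mean of the Sham_N arrays. Most rows of the Sham_Y block are blue, and array 3 is the darkest column of both the Epo_Y and the Sham_Y block.

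Among the proteins of the vesicle membrane, 7 of 10 genes fell in Sham_Y and none rose. Syn1, whose product tethers vesicles in the reserve pool, ran from 8.79 to 9.82 in Sham_Y (median 9.54) and 10.07 to 10.46 in Sham_N (median 10.27). No Sham_Y array reached the lowest Sham_N array. The difference in Syn1 was -0.80 ± 0.13, or 1.74-fold lower (adjusted p = 6.5e-05). Its relative Syn2 behaved alike, at 9.31 to 10.19 in Sham_Y (median 9.94) and 10.44 to 10.76 in Sham_N (median 10.57), again without overlap, and differed by -0.70 ± 0.11 (adjusted p = 6.87e-05). The third synapsin gene, Syn3, overlapped widely between the groups and was not called, with a difference of -0.18 ± 0.20.

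Sv2b showed the largest fall of all. It codes for a vesicle glycoprotein, a relative of the SV2A protein that binds the antiepileptic drug levetiracetam. Its level was 7.79 to 8.88 in Sham_Y (median 8.29) and 9.51 to 10.02 in Sham_N (median 9.62). All 6 Sham_Y arrays were lower than all 6 Sham_N arrays, by -1.34 ± 0.17 on average, or 2.54-fold (adjusted p = 1.99e-06). Sv2a read 9.18 to 10.01 in Sham_Y (median 9.55) and 9.94 to 10.41 in Sham_N (median 10.28), with 1 Sham_Y array inside the Sham_N range, and fell by less, -0.64 ± 0.12 (adjusted p = 0.000237).

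Syp, the gene of the abundant vesicle protein synaptophysin, read 11.17 to 11.86 in Sham_Y (median 11.74) and 12.02 to 12.27 in Sham_N (median 12.09). The groups did not overlap, and the difference was -0.46 ± 0.10 (adjusted p = 0.00136). Synpr codes for synaptoporin, a relative that is concentrated in the mossy fibre terminals of the hippocampus. It read 6.40 to 7.61 in Sham_Y (median 7.06) and 7.42 to 8.39 in Sham_N (median 8.04), so that 5 of 6 Sham_Y arrays were below every Sham_N array, and differed by -0.96 ± 0.20 (adjusted p = 0.00124). Sypl, a relative also expressed widely outside neurons, read 7.82 to 8.40 in Sham_Y (median 8.16) and 7.53 to 8.18 in Sham_N (median 7.85) and was not called, at 0.28 ± 0.15. Of the synaptogyrins, which span the vesicle membrane like synaptophysin, Syngr3 fell (-0.59 ± 0.13, adjusted p = 0.00163) and Syngr1 was not called (-0.29 ± 0.11, adjusted p = 0.0874).

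The promoter of Syn1 is shown because it was one of the 2 promoters among these genes that held the left part of RE1, the element bound by the repressor REST, which keeps neuronal genes silent outside neurons. RefSeq promoters (GRCm38.p6, 250 bases before to 50 bases after the start of the gene) were matched by symbol for 26 of the 36 genes. Of 15 motifs searched on both strands, 3 are reported, and both they and the promoters shown were picked after the matches were seen. They are TTCAGCACC (left part of RE1), TGACGTCA (the cyclic AMP response element) and GGGCGG (the GC box). The Syn1 window lies at chrX:20920869-20921168 on the minus strand of the X chromosome. Capitals mark TTCAGCACC and then TGACGTCA, both as read on the strand of the gene.
Syn1: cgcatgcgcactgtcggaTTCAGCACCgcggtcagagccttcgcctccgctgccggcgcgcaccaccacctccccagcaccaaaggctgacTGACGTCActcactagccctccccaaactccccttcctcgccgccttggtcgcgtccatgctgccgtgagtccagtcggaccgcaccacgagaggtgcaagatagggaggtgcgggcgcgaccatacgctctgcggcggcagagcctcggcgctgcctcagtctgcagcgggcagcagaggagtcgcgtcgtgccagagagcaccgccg

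TTCAGCACC was found in 0.371% of all 32851 promoters and TGACGTCA in 1.79%, and among the 26 matched genes in 2 (Syn1, Unc13a) and 1 (Syn1). The 3 longer forms of RE1 that were searched add the right part of the element. As exact strings they were found in none of the 26, and in 0.0122% to 0.0518% of all promoters. Forms that differ in a base were not counted. In Syn1, TTCAGCACC is followed by gcggtcag, where the longest form searched has NNGGACAG (N is any base). A match is a description of the sequence, and no binding was measured here.

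Of the 5 synaptotagmins measured, 3 fell in Sham_Y. Syt1, the fast calcium sensor of most forebrain synapses, read 10.79 to 11.62 in Sham_Y (median 11.38) and 11.78 to 12.05 in Sham_N (median 11.92). The ranges were separate, and the difference was -0.61 ± 0.11 (adjusted p = 0.000288). Syt4, a synaptotagmin found on dense-core vesicles, differed by -0.38 ± 0.10 (adjusted p = 0.00748). Syt7, a slower sensor of high calcium affinity, read 7.72 to 8.53 in Sham_Y (median 8.35) and 8.002 to 8.90 in Sham_N (median 8.84), which overlap. Its difference of -0.48 ± 0.16 (adjusted p = 0.0381) was no longer called when any 1 of Sham_Y arrays 3, 5 and 6 or Sham_N arrays 2, 3, 4, 5 and 6 was left out. Syt2 (-0.48 ± 0.19) and Syt5 (-0.24 ± 0.15), both vesicle synaptotagmins, were not called.

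The SNAREs and the proteins that act on them gave 6 falls and 1 rise among 9 genes. Snap25, the SNARE of the plasma membrane that joins syntaxin, read 10.21 to 10.97 in Sham_Y (median 10.81) and 11.25 to 11.62 in Sham_N (median 11.37). Every Sham_Y array was lower, and the difference was -0.67 ± 0.11 (adjusted p = 4.28e-05). Vamp2, or synaptobrevin, the SNARE of the vesicle, read 10.65 to 11.23 in Sham_Y (median 11.12) and 11.32 to 11.52 in Sham_N (median 11.45). It was also separate between the groups and differed by -0.37 ± 0.09 (adjusted p = 0.00231).

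Stx1a, the syntaxin that completes this complex, was not called. It read 8.69 to 10.23 in Sham_Y (median 9.14) and 9.60 to 10.17 in Sham_N (median 9.88). The Sham_Y arrays were widely spread, with 4 below and 1 above every Sham_N array, and the difference was -0.55 ± 0.24 (adjusted p = 0.117).

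Vamp3, or cellubrevin, a synaptobrevin of recycling endosomes in most cell types, was the gene that rose. It read 7.601 to 8.11 in Sham_Y (median 7.97) and 6.89 to 7.85 in Sham_N (median 7.49). Of the Sham_Y arrays, 4 were above every Sham_N array. The difference of 0.51 ± 0.18 was just inside the threshold (adjusted p = 0.0474). It was called on leaving out Epo_Y arrays 3, 5 or 6, Sham_Y array 1, Epo_N arrays 4 or 6, or Sham_N arrays 1 or 4, and not called on leaving out any of the other 16 arrays, nor after quantile normalization or centring. Snap29, a widely expressed relative of Snap25, differed by 0.20 ± 0.26 and was not called.

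Both complexins fell by nearly the same amount. Cplx1 read 9.62 to 10.62 in Sham_Y (median 10.38) and 10.94 to 11.30 in Sham_N (median 11.15). Cplx2 read 8.48 to 9.24 in Sham_Y (median 9.06) and 9.81 to 9.97 in Sham_N (median 9.85). Neither gene overlapped between the groups, and the differences were -0.90 ± 0.14 (adjusted p = 3.39e-05) for Cplx1 and -0.93 ± 0.12 (adjusted p = 3.02e-06) for Cplx2. Nsf, the ATPase that recycles SNARE complexes, read 9.90 to 10.56 in Sham_Y (median 10.30) and 10.95 to 11.36 in Sham_N (median 10.99), without overlap, and differed by -0.76 ± 0.11 (adjusted p = 1.23e-05). Napb, which codes for the brain form of the adaptor that brings NSF to the complex, differed by -0.72 ± 0.17 (adjusted p = 0.00316), also with every Sham_Y array lower.

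**Figure D3:**
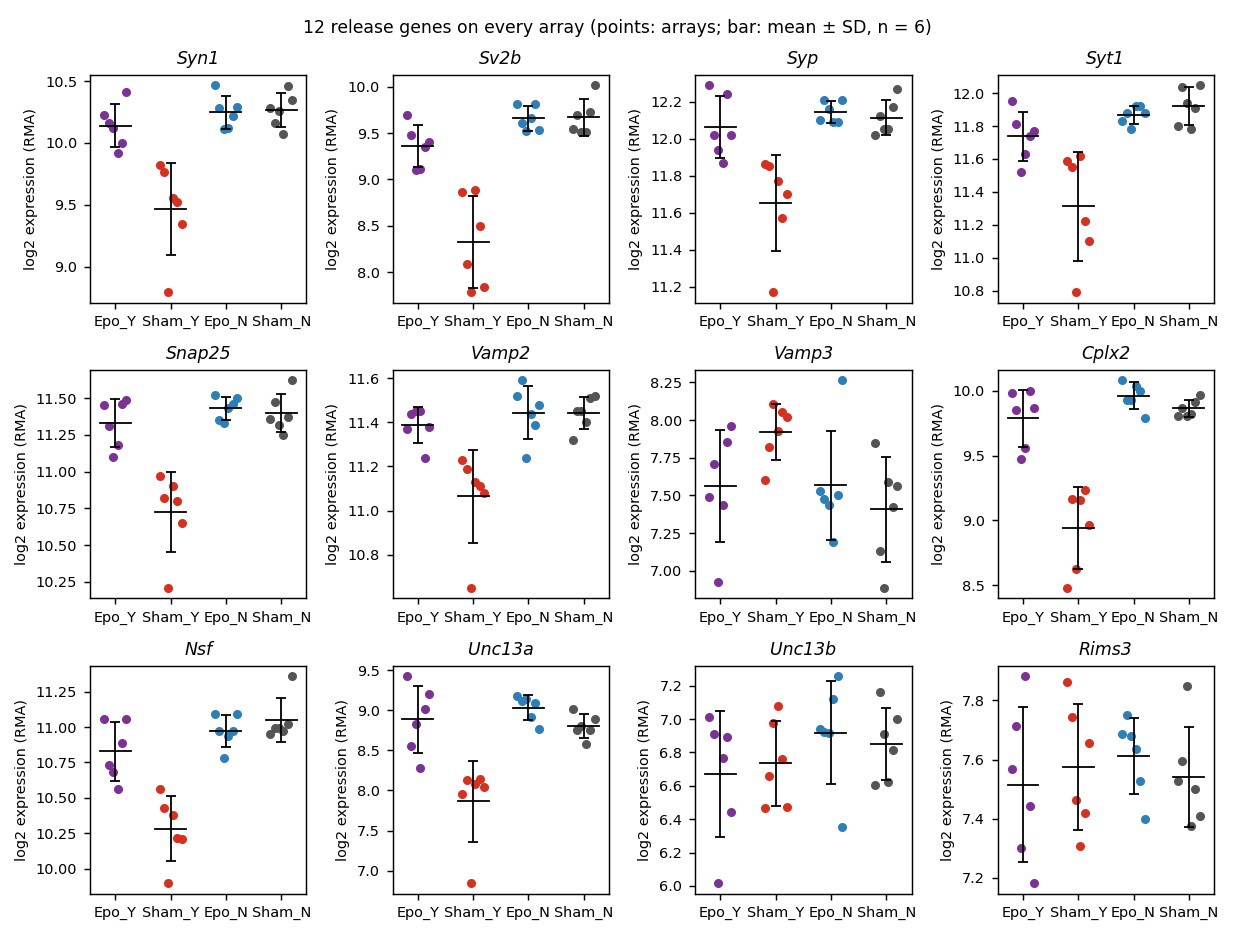
Log2 level of 12 release genes on every array, with points for single arrays and bars for the mean ± SD of the 6 arrays of each group (Epo_Y, Sham_Y, Epo_N, Sham_N from left to right). The Sham_Y mean is the lowest for Syn1, Sv2b, Syp, Syt1, Snap25, Vamp2, Cplx2, Nsf and Unc13a, the highest for Vamp3, and within the spread of the other groups for Unc13b and Rims3.

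At the active zone, 4 of 7 genes fell and the others were not called. Rims1, a scaffold that links the vesicle protein Rab3 to the priming factor Munc13 and to calcium channels, read 7.81 to 8.70 in Sham_Y (median 8.37) and 8.86 to 9.29 in Sham_N (median 9.09). The groups were separate, at a difference of -0.74 ± 0.15 (adjusted p = 0.000636). Its relatives Rims2 (-0.17 ± 0.16) and Rims3 (0.03 ± 0.12) were not called.

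Unc13a codes for a form of Munc13, the factor that opens syntaxin and primes the vesicle. It read 6.84 to 8.14 in Sham_Y (median 8.06) and 8.58 to 9.02 in Sham_N (median 8.78). All Sham_Y arrays were lower, array 3 by far the most, and the difference was -0.94 ± 0.19, or 1.91-fold (adjusted p = 0.000792). Unc13b, which codes for another Munc13, read 6.47 to 7.08 in Sham_Y (median 6.71) and 6.61 to 7.16 in Sham_N (median 6.86). These ranges overlap for most arrays, and the difference of -0.12 ± 0.16 was not called.

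The promoters of Unc13a (chr8:71671708-71672007, minus strand) and Unc13b (chr4:43058703-43059002, plus strand) are shown side by side because the genes are related and differed in how they changed. Capitals mark CCGCCC and GGGCGG, the GC box on either strand, and in Unc13a also GGTGCTGAA, which is TTCAGCACC read on the opposite strand. The GC box occurred 2 times in Unc13a and 4 times in Unc13b. It was found in 35.7% of all promoters and in 19 of the 26 matched genes.
Unc13a: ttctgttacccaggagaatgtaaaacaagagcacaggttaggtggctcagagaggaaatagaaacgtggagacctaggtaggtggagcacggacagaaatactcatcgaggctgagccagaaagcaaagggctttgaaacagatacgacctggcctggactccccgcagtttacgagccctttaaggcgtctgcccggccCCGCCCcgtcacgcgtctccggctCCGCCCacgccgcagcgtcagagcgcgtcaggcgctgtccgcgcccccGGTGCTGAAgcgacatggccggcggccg
Unc13b: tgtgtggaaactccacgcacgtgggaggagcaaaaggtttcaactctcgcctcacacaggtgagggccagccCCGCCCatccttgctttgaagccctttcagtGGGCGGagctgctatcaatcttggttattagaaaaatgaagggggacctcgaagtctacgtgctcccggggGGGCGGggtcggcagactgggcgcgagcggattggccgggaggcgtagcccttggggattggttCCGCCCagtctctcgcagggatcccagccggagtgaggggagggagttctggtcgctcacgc

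Bsn and Pclo code for Bassoon and Piccolo, the giant scaffolds of the active zone. Bsn differed by -0.51 ± 0.16 (adjusted p = 0.0286) and Pclo by -0.56 ± 0.19 (adjusted p = 0.0471). Every Sham_Y array was below every Sham_N array for Bsn, and 3 were for Pclo. The Bsn call was lost without Sham_Y arrays 3, 5 or 6 or Sham_N array 3. The Pclo call was kept without Epo_Y arrays 1, 2 or 3, Sham_Y arrays 2 or 4, Epo_N arrays 1, 3, 5 or 6, or Sham_N array 4, and lost without any of the other 14.

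Rph3a, which codes for rabphilin, an effector of Rab3, read 8.34 to 8.80 in Sham_Y (median 8.64) and 8.996 to 9.55 in Sham_N (median 9.36). The ranges did not meet, and the difference was -0.75 ± 0.10 (adjusted p = 6.24e-06). Rab3a, the vesicle GTPase itself, fell by less (-0.34 ± 0.11, adjusted p = 0.0335), and its call was lost without Sham_Y arrays 3 or 5 or Sham_N arrays 2, 3, 5 or 6. With the arrays of Sham_Y and Sham_N alone, Rab3a and Syt7 were not called. Doc2a, a calcium-binding protein linked to spontaneous release, was not called (-0.28 ± 0.17).

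Both genes of membrane retrieval fell. Dnm1, the neuronal dynamin that cuts endocytic vesicles free, read 9.61 to 10.68 in Sham_Y (median 10.20) and 10.83 to 11.16 in Sham_N (median 10.97), without overlap. It differed by -0.78 ± 0.13 (adjusted p = 0.000122). Amph, whose product amphiphysin recruits dynamin, differed by -0.46 ± 0.11 (adjusted p = 0.00245), with 5 of 6 Sham_Y arrays below the Sham_N range.

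The fall was not uniform within gene families. The difference between 2 related genes on the same array is free of a constant shift of the whole array. It was compared between Sham_Y and Sham_N for all 26 pairs of measured relatives. It is not free of a change in the mix of cells when the 2 genes differ in the cells that express them. Sypl, Snap29 and Vamp3 are described above as widely expressed. What part of the differences within pairs goes with the mix of cells was not tested. This comparison was added after the single genes had been seen. By an exact two-sided permutation test over the 924 ways to split the 12 arrays, whose smallest possible p is 0.00216, 9 of the 26 pairs passed an adjusted p of 0.05. Unc13a fell relative to Unc13b by 0.82 ± 0.29 (exact p = 0.00216, adjusted p = 0.0113), on every Sham_Y array. Rims1 fell relative to Rims2 by 0.57 ± 0.09 (exact p = 0.00216, adjusted p = 0.0113) and relative to Rims3 by 0.77 ± 0.17 (exact p = 0.00433, adjusted p = 0.0141). Rims2 and Rims3 did not pass against each other (-0.20 ± 0.18, exact p = 0.286, adjusted p = 0.437).

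Among the SNAREs, Snap25 fell relative to Snap29 by 0.88 ± 0.22 (exact p = 0.00216, adjusted p = 0.0113), and Vamp2 relative to Vamp3 by 0.89 ± 0.22 (exact p = 0.00433, adjusted p = 0.0141). On the vesicle, the difference of Sv2a minus Sv2b was higher in Sham_Y by 0.71 ± 0.13 (exact p = 0.00216, adjusted p = 0.0113). Syp fell relative to Sypl by 0.74 ± 0.21 (exact p = 0.00433, adjusted p = 0.0141), and the difference of Sypl minus Synpr was higher by 1.24 ± 0.23 (exact p = 0.00216, adjusted p = 0.0113). The remaining pair, Syt1 against Syt5, was at the threshold (-0.37 ± 0.13, exact p = 0.0152, adjusted p = 0.0438) and was lost without any 1 of 10 of the 12 arrays, all but Sham_Y array 4 and Sham_N array 2. The other pairs kept an adjusted p under 0.05 without any 1 array. Cplx1 and Cplx2 (0.03 ± 0.18, exact p = 0.924, adjusted p = 0.961) and Bsn and Pclo (0.05 ± 0.11, exact p = 0.671, adjusted p = 0.758) did not pass.

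**Figure D4:**
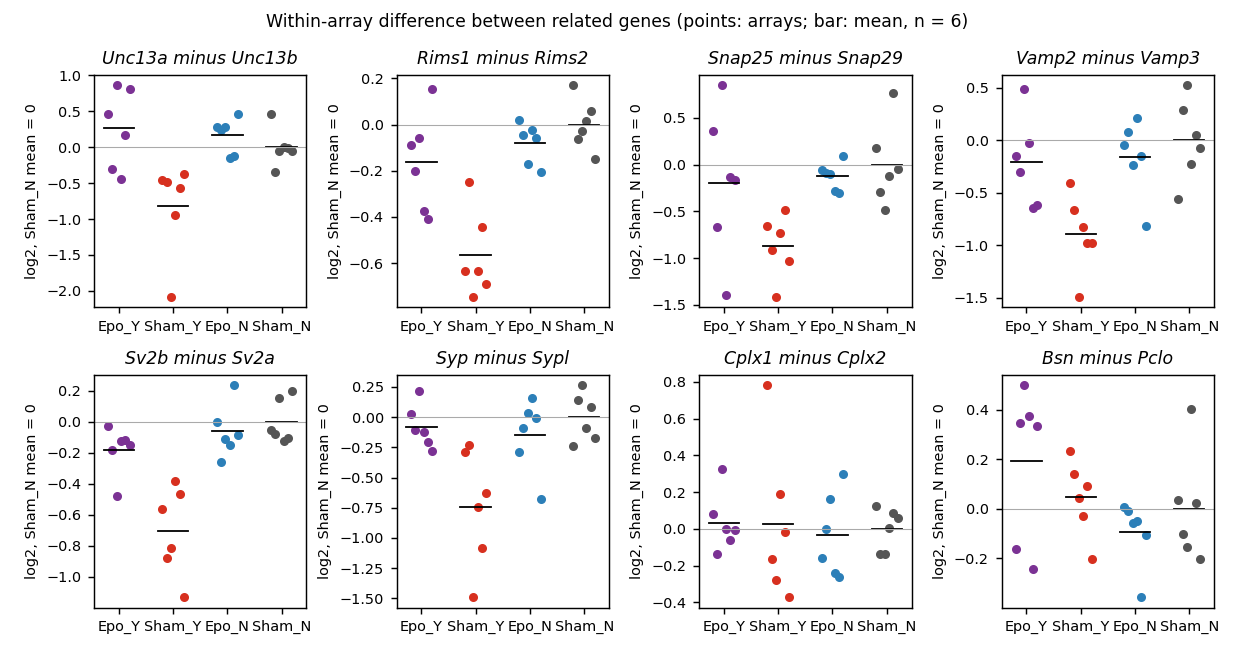
Log2 difference between 2 related genes on the same array, relative to its mean over the Sham_N arrays, for 8 of the 26 pairs (points: arrays, bar: mean of 6). The Sham_Y mean is the lowest of the 4 groups in 6 of the 8 panels, all but Cplx1 minus Cplx2 and Bsn minus Pclo.

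The genes that fell were mostly bright rows. Of the 25 release genes with a mean level of at least 8, 22 were called lower, where 23.6% of all rows that bright were. Of the 11 dimmer ones, 2 were (Synpr and Pclo), where 3.86% of rows were. The bound of 8 was set after the levels were seen. In the pairs above that passed, the gene that fell more was mostly the brighter by its Sham_N mean, such as Snap25 (11.4) against Snap29 (6.87). Sv2b (9.67) fell more than the brighter Sv2a (10.25). Whether brightness bears on which genes were called, or on the differences within pairs, was not tested.

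Against Sham_Y, the release genes were higher in Epo_Y. Of the 36 genes, 20 rose and none fell, where 6.05% of all rows were called higher and 7.83% lower, and the median difference was 0.39 against -0.01 over all rows. For 11 of the 36, every Epo_Y array lay above every Sham_Y array, as for 1.89% of all rows. The Sham_Y arrays enter this comparison and the one above, so the 2 sets of differences are not independent. All 20 genes are among the 24 that were lower in Sham_Y than in Sham_N, and the other 4 are Syt7, Rims1, Bsn and Pclo. After centring 21 rose and none fell, where 13.3% of all rows were called higher and 5.99% lower. With the 12 arrays of these groups alone 13 were called higher, where 3.71% of all rows were. The calls lost were those of Syp, Syngr3, Syt1, Vamp2, Napb, Dnm1 and Amph.

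Sv2b read 9.10 to 9.70 in Epo_Y (median 9.37), above all Sham_Y arrays, and the difference from Sham_Y was 1.03 ± 0.17 (adjusted p = 0.000116). Unc13a read 8.28 to 9.43 in Epo_Y (median 8.92), also clear of the Sham_Y arrays, and differed by 1.02 ± 0.19 (adjusted p = 0.000587). Unc13b, at 6.02 to 7.01 in Epo_Y (median 6.83), was not called (-0.06 ± 0.16). Both complexins were higher on every Epo_Y array, by 0.86 ± 0.14 for Cplx1 (adjusted p = 0.000121) and 0.85 ± 0.12 for Cplx2 (adjusted p = 2.1e-05).

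Syn1 read 9.92 to 10.41 in Epo_Y (median 10.14), against 8.79 to 9.82 in Sham_Y, and was higher by 0.67 ± 0.13 (adjusted p = 0.00077). Snap25 read 11.10 to 11.49 in Epo_Y (median 11.38), against 10.21 to 10.97 in Sham_Y, and was higher by 0.61 ± 0.11 (adjusted p = 0.000273). These groups do not overlap for either gene. Syt4 had the tightest Epo_Y values, 10.14 to 10.29 in Epo_Y (median 10.22), all above the Sham_Y range of 9.51 to 9.82, and was higher by 0.53 ± 0.10 (adjusted p = 0.000598). Synpr (0.90 ± 0.20), Napb (0.68 ± 0.17), Nsf (0.55 ± 0.11), Syn2 (0.55 ± 0.11) and Rph3a (0.49 ± 0.10) were higher by between 0.49 and 0.90.

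Vamp2 read 11.24 to 11.45 in Epo_Y (median 11.41) and was higher by 0.32 ± 0.09 (adjusted p = 0.0107), the smallest called rise, which was 0.21 and not called without Epo_Y arrays 3 and 4 and Sham_Y array 3. Amph was higher by 0.37 ± 0.11 (adjusted p = 0.0193), a call that was lost without Sham_Y array 3, where its difference was 0.30. The remaining genes that rose, Syp, Syngr3, Sv2a, Syt1, Rab3a and Dnm1, did so by between 0.41 and 0.51. Rims1 (0.33 ± 0.15), Bsn (0.20 ± 0.16), Pclo (0.06 ± 0.19) and Syt7 (0.19 ± 0.16) were not called. Vamp3 read 6.93 to 7.96 in Epo_Y (median 7.598), and its difference of -0.36 ± 0.18 was not called (adjusted p = 0.218).

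Of the same 26 pairs of relatives, 6 passed in Epo_Y against Sham_Y (exact permutation test, adjusted over 26). The Sham_Y arrays are those of the pairs above, so these results are not independent of them. Unc13a rose relative to Unc13b by 1.08 ± 0.35 (exact p = 0.00433, adjusted p = 0.0375), and Vamp2 relative to Vamp3 by 0.68 ± 0.23 (exact p = 0.0108, adjusted p = 0.0469). The others were Syp and Sypl, Sypl and Synpr, Sv2a and Sv2b, and Rims1 and Rims2. All 6 were lost when any 1 of Epo_Y arrays 1, 2, 3 or 6 or Sham_Y arrays 1, 3, 4, 5 or 6 was left out. Vamp2 and Vamp3 were also lost without Epo_Y array 4 or Sham_Y array 2, and Sv2a and Sv2b without Epo_Y array 5 or Sham_Y array 2.

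Between Epo_N and Sham_N, no row of 23238 was called (0%), with 1803 at an unadjusted p under 0.05, none of them a release gene. The median difference of the 36 genes was 0.05, and its sign was not stable, at -0.06 after quantile normalization, -0.02 after centring, -0.0099 with the title code as a term and -0.03 in code 3D. Syn1 read 10.11 to 10.47 in Epo_N (median 10.25), against 10.07 to 10.46 in Sham_N (median 10.27). Sv2b read 9.52 to 9.82 in Epo_N (median 9.63), against 9.51 to 10.02 in Sham_N (median 9.62). The groups overlap for both genes. Over the 36 genes the differences ran from -0.08 ± 0.13 for Dnm1 to 0.23 ± 0.19 for Unc13a.

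Set against Epo_N, 26 of the 36 genes were lower in Sham_Y and none higher, where 11.8% of rows were called lower and 8.28% higher, with a median of -0.55. The Sham_Y arrays enter here again, so these falls are not independent of those against Sham_N. Sv2b differed by -1.33 ± 0.17 (adjusted p = 2.52e-06), Unc13a by -1.17 ± 0.19 (adjusted p = 7.34e-05) and Cplx2 by -1.02 ± 0.12 (adjusted p = 9.07e-07). Syt2 (-0.60 ± 0.19) and Syngr1 (-0.33 ± 0.11) were called here. The Syt2 call was lost without Sham_Y arrays 3, 5 or 6 or Epo_N arrays 2, 4 or 6. The Syngr1 call was lost without Sham_Y arrays 2, 3 or 5 or Epo_N arrays 1 to 5, and that of Bsn without Sham_Y array 3 or Epo_N array 1. Both Syt2 and Syngr1 also lost their calls with the title code as a factor, with these 2 groups alone, and without Epo_Y arrays 3 and 4 and Sham_Y array 3, and Syngr1 also after quantile normalization, where its difference was -0.21. After centring 29 of the 36 were lower and none higher, where 20.4% of all rows were called lower and 6.71% higher. These are the groups that the readings of the titles exchange, so that the sign of this comparison turns with the reading.

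No row was called between Epo_Y and Epo_N (0%), with 1892 rows at an unadjusted p under 0.05, among them 4 release genes. All but 1 of the 36 differences were below 0, with a median of -0.15, against -0.06 over all rows (-0.25 for the 36 genes in code 3D). The 4 were Pclo (-0.62 ± 0.19), Rph3a (-0.33 ± 0.10), Rims1 (-0.36 ± 0.15) and Syt7 (-0.36 ± 0.16), none with an adjusted p below 0.539. Pclo read 6.89 to 8.12 in Epo_Y (median 7.71) and 7.77 to 8.68 in Epo_N (median 8.28), which overlap. Without Epo_Y arrays 3 and 4 the median over the 36 genes was -0.07.

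No row was called between Epo_Y and Sham_N either (0%), with 1374 at an unadjusted p under 0.05. The median difference of the release genes was -0.08, and 4 of them were among the 1374. They were Rims1 (-0.40 ± 0.15), Pclo (-0.50 ± 0.19), Rph3a (-0.26 ± 0.10) and Dnm1 (-0.28 ± 0.13). Without Epo_Y arrays 3 and 4 the median was -0.05.

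The interaction, which is the same under both readings of the titles, asks whether Epo_Y minus Epo_N differs from Sham_Y minus Sham_N. It was called for 8 of the 36 genes, all positive, where 1.55% of rows were called positive and 5.75% negative. These were Sv2b (1.04 ± 0.23, adjusted p = 0.00679), Cplx2 (0.75 ± 0.17, adjusted p = 0.00607), Cplx1 (0.79 ± 0.20, adjusted p = 0.0133), Nsf (0.62 ± 0.15), Snap25 (0.57 ± 0.15), Syn1 (0.69 ± 0.18), Syn2 (0.58 ± 0.16) and Syt4 (0.49 ± 0.14). The median over the 36 genes was 0.36, against -0.08 over all rows. All 8 genes were also among those lower in Sham_Y than in Sham_N. The same Sham_Y and Sham_N arrays enter both, so the interaction is not independent of that comparison. Syn2 was lost without Epo_Y array 6, Epo_N array 3 or Sham_N array 3. Syt4 was lost without Epo_Y arrays 1 or 6, Sham_Y arrays 3 or 4, Epo_N arrays 1 or 5, or Sham_N arrays 1, 2 or 6. Cplx1, Snap25 and Syt4 were not called once the title code was a term of the fit. The count of positive calls was 15 without Epo_Y arrays 3 and 4, where 2.73% of all rows were called positive, and 12 without Sham_Y array 3 as well, where 2.31% were. It was 19 after centring, which also turned the split over all rows, with 5.33% called positive and 4.02% negative. After quantile normalization it was 11, with 3.88% of rows positive and 5.2% negative. Unc13a (0.79 ± 0.27, adjusted p = 0.0796), Synpr (0.79 ± 0.29) and Napb (0.69 ± 0.24) had differences as large as those called and were not called.

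Other genes of the same steps were followed in a list of 98, of which 83 were measured. In Sham_Y against Sham_N, 34 of these (41.0%) fell and 11 (13.3%) rose, with a median of -0.26. The share that rose is near the 11.5% of all rows called higher, so the rises are no result about this list. At the active zone 8 of 12 fell, led by Cadps2 (-1.22 ± 0.15), a priming factor of dense-core vesicles. Among transporters, Slc17a7, the vesicular glutamate transporter of most cortical and hippocampal terminals, fell by 0.93 ± 0.15 and Slc18a2, which loads monoamines, by 1.09 ± 0.23. Sh3gl2, which codes for endophilin A1, a partner of dynamin, fell by 1.16 ± 0.15, and Stxbp5l, a tomosyn that holds syntaxin back, by 1.13 ± 0.18. The largest rises were those of Vamp8 (1.86 ± 0.20), Syngr2 (1.63 ± 0.15), Rab3il1 (1.25 ± 0.17), Snap23 (1.09 ± 0.15) and Stxbp2 (0.65 ± 0.19). Vamp8, Syngr2, Snap23 and Stxbp2 are forms of synaptobrevin, synaptogyrin, SNAP-25 and Munc18 that cells outside the nervous system use. In Epo_Y against Sham_Y, 27 of the 83 (32.5%) rose and 8 (9.64%) fell, the second share again near that of all rows (7.83%), and Vamp8 (-1.32 ± 0.20), Syngr2 (-1.15 ± 0.15) and Snap23 (-0.85 ± 0.15) were among those that fell.

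Genes of the postsynaptic side moved alongside. Of all rows, 7.6% were called lower in Sham_Y against Sham_N and 6.05% higher in Epo_Y against Sham_Y. Of 20 genes of the postsynaptic density, 19 fell in Sham_Y against Sham_N, such as the glutamate receptor subunit genes Grin2a (-1.42 ± 0.18) and Gria1 (-1.07 ± 0.12), and 16 rose in Epo_Y against Sham_Y. Of 13 general neuron markers 9 fell and none rose, and their mean level per array was 9.23 to 9.77 in Epo_Y, 8.94 to 9.33 in Sham_Y, 9.65 to 9.91 in Epo_N and 9.57 to 9.89 in Sham_N. Of 9 hippocampal neuron markers 5 fell, led by Neurod6 (-2.31 ± 0.46), a transcription factor of pyramidal cells. Of 8 markers of inhibitory neurons none was called in Sham_Y against Sham_N. After centring 4 were called lower, where 18.4% of all rows were.

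Markers of microglia, astrocytes, endothelium and blood leukocytes mostly moved the other way on the same arrays. Of all rows, 11.5% were called higher and 7.6% lower in Sham_Y against Sham_N. Of 10 microglia markers 6 were higher and 2 lower in Sham_Y than in Sham_N, with mean levels of 5.92 to 7.13 in Epo_Y, 7.19 to 7.49 in Sham_Y, 6.47 to 6.57 in Epo_N and 6.08 to 6.53 in Sham_N. The 2 that fell, P2ry12 (-0.53 ± 0.11) and Tmem119 (-0.60 ± 0.17), mark homeostatic microglia and are named after their values were seen. Of 6 astrocyte markers 4 were higher, such as Gfap (2.37 ± 0.33), with mean levels of 8.96 to 10.53 in Epo_Y, 10.06 to 10.42 in Sham_Y, 9.20 to 9.40 in Epo_N and 8.97 to 9.31 in Sham_N. Of 6 endothelial markers 5 were higher, with 6.18 to 7.15 in Epo_Y, 7.57 to 7.91 in Sham_Y, 6.61 to 7.05 in Epo_N and 6.42 to 7.06 in Sham_N. Of 5 blood leukocyte markers 3 were higher, with 3.04 to 3.66 in Epo_Y, 3.27 to 4.44 in Sham_Y, 3.09 to 3.39 in Epo_N and 3.02 to 3.43 in Sham_N, and of 7 oligodendrocyte markers 1 was, with 7.47 to 8.38 in Epo_Y, 7.93 to 8.77 in Sham_Y, 7.77 to 9.15 in Epo_N and 7.41 to 8.56 in Sham_N. The oligodendrocyte share is near that of all rows, so it is no result about these markers. The mean levels of the blood leukocyte markers lay below every array median (5.05 to 5.43). Their 3 calls became 1 with the title code as a factor, where 7.89% of all rows were called higher. In code 3D they became 0, where 2.48% were. After centring, 1 oligodendrocyte marker was lower and none higher. None of the 2 red cell, 4 choroid plexus and 5 thalamus and cortex markers was called. What share of the fall in release genes goes with these cell type markers was not tested.

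**Figure D5:**
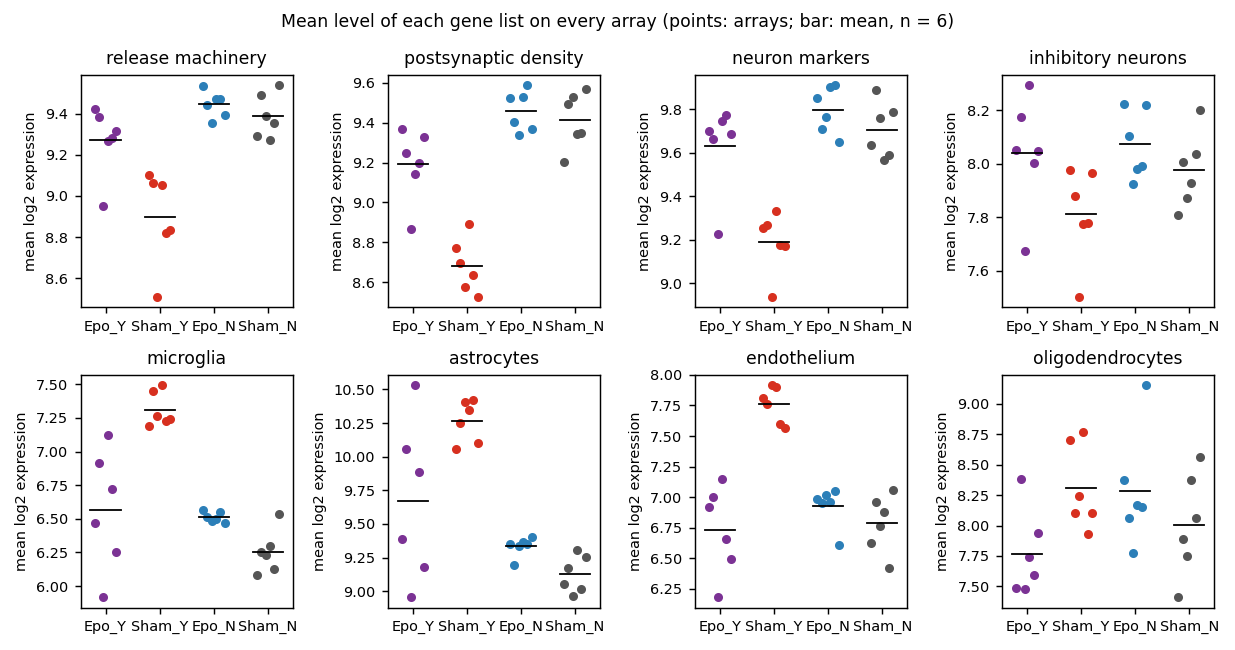
Mean log2 level of the 36 release genes and of 7 other gene lists on every array (points: arrays, bar: mean of 6, groups Epo_Y, Sham_Y, Epo_N, Sham_N from left to right). Sham_Y arrays are low for release, postsynaptic and neuron genes and high for microglia, astrocyte and endothelial markers, and Epo_Y arrays are the most spread for these 3 marker lists.

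Averaged over the 36 release genes, arrays ranged 8.95 to 9.42 in Epo_Y, 8.51 to 9.10 in Sham_Y, 9.35 to 9.54 in Epo_N and 9.27 to 9.54 in Sham_N. The title code was tested alone only for code 3D, with 2 Sham_Y and 2 Sham_N arrays. There 7 of the 36 genes were called lower, where 1.23% of all rows were, and the median was -0.78. Codes 3E and 3F hold 1 Sham_Y and 1 Sham_N array each, and their medians, with no test, were -0.54 and -0.55, with 32 and 31 of the 36 genes lower on the Sham_Y array. Over all rows the medians of these codes were 0.04 and 0.05. Between the 3 Epo_Y and 2 Sham_Y arrays of code 3D none of the 36 was called, with a median of 0.45. Of all rows, 0.448% were called higher there and 1.43% lower. The median of Epo_Y minus Sham_Y was 0.29 in code 3A, with 2 Epo_Y arrays and 1 Sham_Y array, and 0.49 in code 3F, with 1 of each. Over all rows these medians were 0.03 and -0.02. With the code as a fixed factor in all arrays, 23 genes were called lower in Sham_Y against Sham_N, where 5.72% of all rows were. Syt4, Pclo and Rab3a lost their calls, while other genes gained one. The genes called lower then included 8 of 10 of the vesicle membrane (7 without the code). Of the 9 SNAREs and their regulators they included 7 (6 without the code).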

How the data were processed

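Each of the 24 arrays was hybridised with RNA of 1 right hippocampus. The authors deposited log2 expression levels. Per the submitters' processing notes they used RMA in Affymetrix Expression Console (versions not stated). RMA corrects background, normalizes by quantiles and summarises probes, so levels are relative within the set. No values were missing. Of 23238 rows, 14939 carried 1 gene symbol, 989 several and 7310 none.

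Groups followed the title starts. A model with 1 mean per group was fitted to all rows (limma 3.58.1 in R 4.3.3, lmFit and eBayes, 20 residual degrees of freedom), and p-values were adjusted by Benjamini-Hochberg over all rows, with 0.05 as the threshold. The median SE of a difference between 2 groups was 0.14. The number of arrays limits the precision. The fit was checked on simulated data. Replicate numbers follow accession order and only name arrays.

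The genes and lists were chosen with earlier results of these data known. Every measured release gene could be named. Of the other release genes, the 5 largest called rises and falls in Sham_Y minus Sham_N were named, and of each marker list up to 2 called genes with the largest difference. Alternatives were quantile normalization, centring, filters on dim and unnamed rows, moderation with a trend, array weights, the title code, the groups of a comparison alone, leaving out each array, a threshold of 0.01 and the other reading of the titles. The arrays left out together were picked from their values. A mean over several rows of a gene was not run, since none of the 36 had several. Stxbp4 and Erc1, of the other release genes, had 2 rows each, and the row with the highest mean was used. Sequences are from RefSeq (GRCm38.p6).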

Additional observations from a re-analysis of the deposited data

Results flagged for a closer look

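For 144 sets of 6 arrays (36 genes in 4 groups), the highest or lowest array was set against the others by Dixon's ratio of its gap to the whole range. In 11 sets an array stood apart, and chance gives about 1 set in 20. Sham_Y array 3 was lowest for Unc13a (6.84), Vamp2 (10.65) and Syn2 (9.31). Epo_Y array 3 was lowest for Amph (9.62) and Napb (9.14), and Epo_Y array 5 for Vamp2 (11.24). Sham_Y array 5 was lowest for Snap29 (6.76) and Sham_N array 1 for Syt7 (8.002). Epo_N array 6 was highest for Vamp3 (8.26), Sham_N array 6 for Nsf (11.36) and Sham_N array 3 for Bsn (8.52).

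Epo_Y minus Epo_N differed from Sham_Y minus Sham_N, by the interaction term of the limma fit, for 8 genes. The differences of differences were 1.041 for Sv2b, 0.79 for Cplx1, 0.75 for Cplx2, 0.69 for Syn1, 0.62 for Nsf, 0.58 for Syn2, 0.57 for Snap25 and 0.49 for Syt4.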

How the results depend on the processing

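No called difference turned its sign in any refit, but the other reading of the titles exchanges Sham_Y and Epo_N and so turns the 26 calls between them. In Sham_Y against Sham_N, 19 of the 25 calls were kept under every alternative that refitted single genes except code 3D alone, which leaves 2 arrays in each of these groups. Without Epo_Y arrays 3 and 4 and Sham_Y array 3, 21 fell, where 8.01% of all rows did, and Bsn, Pclo and Rab3a were not called. The lower count was 7 in code 3D, where 1.23% of all rows were called lower. The median was -0.70 with centring, -0.69 with the title code as a factor and -0.78 in code 3D. The 1 rise was 0 under quantile normalization, centring, code 3D, the threshold of 0.01 and without Epo_Y arrays 3 and 4 and Sham_Y array 3, and 0 to 1 on leaving out single arrays. In Epo_Y against Sham_Y, 20 rises became 13 with those 2 groups alone (3.71% of all rows higher) and 0 in code 3D (0.448%). In Sham_Y against Epo_N, 26 falls became 11 in code 3D (2.8% of all rows lower). Array weights gave 1 rise there (0 to 1 on leaving out single arrays). With centring the interaction count of 8 became 19 (5.33% of all rows positive). It was 15 without Epo_Y arrays 3 and 4 (2.73%) and 0 in code 3D (0.0043%). Array weights gave 16 and the threshold of 0.01 gave 2, and the share of all rows is not given here for either. The medians of the interaction were 0.55 (centring) and 0.51 (code 3D). Epo_Y minus Sham_N had a median of -0.24 in code 3D. Pairs of relatives past the threshold ran from 8 to 11 in Sham_Y against Sham_N and from 0 to 7 in Epo_Y against Sham_Y. With Sham_Y and Epo_N exchanged, Sham_Y minus Sham_N had 0 higher and 0 lower, Epo_N minus Sham_N had 1 higher and 24 lower, Epo_Y minus Sham_Y 0 higher and Epo_Y minus Epo_N 20 higher. The cause of these changes was not tested, except that code 3D and single groups hold fewer arrays and the exchange renames groups. Over all rows, Sham_Y against Sham_N had 1766 falls and 2679 rises, and 4286 and 1790 with centring. No paired analysis was possible because the replicate numbers only name arrays. The dimmest release genes were Syt2 and Unc13b, and no signal over background was used here.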
